A study of Mus musculus with 4 samples.

Results

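The major urinary protein genes (Mup) form a cluster on mouse chromosome 4, and 10 of them, Mup1, Mup3, Mup4, Mup5, Mup7, Mup11, Mup16, Mup17, Mup20 and Mup21, are described here for peaks of an antibody against IgD. They were given as a list, selected on the positions of peaks in the 2 lists described here, together with every peak inside them or within 50000 bp of them. These are 10 of 21774 protein-coding genes on the assembled chromosomes, and the cluster holds 12 further Mup genes and 22 loci named as Mup pseudogenes. Chromatin immunoprecipitation with sequencing (ChIP-seq) was done on pro-B cells, an early B cell stage, sorted from the bone marrow of wild-type mice as B220-positive, IgM-negative and CD43-positive cells. All libraries came from this cell type and genotype, with no further allele or agent named. The antibody against mouse IgD was used in 2 libraries and mouse IgG, the control for antibody binding without a target, in 2. The depositors called peaks once for each IgD library, against the like-numbered IgG library, and obtained 11375 peaks (pair 1) and 40628 peaks (pair 2). The study's title ties nuclear IgD to E2F3, a cell cycle transcription factor, and does not name the Mup genes. Neither sex, age nor strain of the mice, nor whether the pairs came from separate mice, is stated in the labels used here. The genes and the window were chosen with these peaks known, so all peak values below are descriptions, and none was tested.

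Major urinary proteins are small secreted lipocalins, proteins whose barrel-shaped fold holds a greasy ligand. They are made mainly in the liver, under hormonal control, pass into the urine, and carry pheromones that other mice sense with the vomeronasal organ. The genes arose by repeated duplication, and the copies in the middle of the cluster are far more alike than those at its edges. Peaks measure DNA recovered with the antibody and give no RNA level, so neither the expression of these genes nor the identity of the sorted cells could be read from them.

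The likeness of the copies is shown first, because reads from near-identical copies cannot always be assigned to a single locus. Promoter sequence was found for 6 of the 10 genes in a RefSeq table on GRCm38.p6, the assembly that mm10 names. The 250 bases before each annotated start are printed 5′ to 3′ in the direction of the gene, all from the minus strand. Capitals mark bases that differ from Mup17, or have no partner in it, within the aligned stretch. Mup17 is the reference because its gene and promoter lay wholly under a peak in both lists. Its window is chr4:61595833-61596082, and those of Mup11 and Mup7 are chr4:60662396-60662645 and chr4:60070476-60070725.
Mup17: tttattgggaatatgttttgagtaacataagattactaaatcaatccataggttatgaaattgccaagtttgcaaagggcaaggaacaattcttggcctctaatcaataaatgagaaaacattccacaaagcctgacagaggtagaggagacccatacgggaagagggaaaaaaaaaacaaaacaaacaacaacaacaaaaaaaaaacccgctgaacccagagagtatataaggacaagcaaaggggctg
Mup11: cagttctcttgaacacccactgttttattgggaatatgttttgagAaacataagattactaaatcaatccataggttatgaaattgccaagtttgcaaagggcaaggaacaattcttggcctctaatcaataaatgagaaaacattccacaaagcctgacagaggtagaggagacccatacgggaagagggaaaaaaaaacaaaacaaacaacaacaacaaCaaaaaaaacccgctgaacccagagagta
Mup7: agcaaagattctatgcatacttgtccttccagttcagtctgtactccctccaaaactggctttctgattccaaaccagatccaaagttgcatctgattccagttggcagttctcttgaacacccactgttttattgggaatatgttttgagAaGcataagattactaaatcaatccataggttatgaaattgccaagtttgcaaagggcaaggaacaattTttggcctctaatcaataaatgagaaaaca

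Over the aligned stretch Mup11 was 98.7% identical to Mup17 (228 columns) and Mup7 97.5% (121 columns). The Mup7 stretch is shorter because the annotated starts do not line up, so that the windows are offset against each other. The 3 genes at the edges of the cluster are printed next, to show how far they had diverged. The windows are chr4:59960668-59960917 for Mup4, chr4:62087318-62087567 for Mup3 and chr4:62150842-62151091 for Mup21.
Mup4: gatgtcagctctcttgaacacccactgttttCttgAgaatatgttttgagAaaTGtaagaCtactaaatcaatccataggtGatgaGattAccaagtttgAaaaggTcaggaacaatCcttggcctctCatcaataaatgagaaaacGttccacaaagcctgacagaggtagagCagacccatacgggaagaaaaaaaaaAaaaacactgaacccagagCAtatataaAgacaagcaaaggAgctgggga
Mup3: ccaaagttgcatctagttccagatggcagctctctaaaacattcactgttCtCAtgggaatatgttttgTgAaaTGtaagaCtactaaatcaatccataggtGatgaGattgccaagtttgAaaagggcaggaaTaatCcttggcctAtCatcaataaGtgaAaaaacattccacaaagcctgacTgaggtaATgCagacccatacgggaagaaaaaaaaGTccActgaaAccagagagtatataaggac
Mup21: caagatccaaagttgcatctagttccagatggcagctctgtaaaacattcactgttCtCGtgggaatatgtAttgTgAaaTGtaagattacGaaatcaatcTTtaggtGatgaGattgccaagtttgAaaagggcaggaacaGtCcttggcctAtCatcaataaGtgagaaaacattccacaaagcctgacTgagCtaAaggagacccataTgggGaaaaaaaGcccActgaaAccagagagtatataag

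Identity to Mup17 was 79.2% for Mup4, 74.6% for Mup3 and 72.1% for Mup21. Gap columns count as differences in all these shares. Against Mup17 there were 32, 35 and 38 gap columns and 20, 25 and 27 mismatches. The Mup7 stretch had 0 gap columns and ends before the A-rich part of the Mup17 window, so its 97.5% is not on equal terms. Mup3 and Mup21, which are neighbours, were 92.3% identical to each other. Across all pairs of these 6 promoters identity ran from 72.0% (Mup11 and Mup21) to 98.7% (Mup11 and Mup17), with a median of 82.5%. The TATA-like word TATATAA, searched on both strands, was in 4 of the 6 windows, against 3.20% of 17492 protein-coding promoters. It was missing from the Mup7 and Mup11 windows, which do not reach past its place in Mup17. The Mup11 window ends inside that place and the Mup7 window before it, so its absence from these genes is not shown. The word TTCNNNGAA, the core to which STAT5 binds downstream of growth hormone, was in 0 of the 6, against 6.69% of promoters. A word found or missing in this window is a description of the sequence only. How reads that match several copies were placed is not given in the sources used here, so the coverage of any single copy, in every value below, is uncertain.

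The peaks formed long blocks on either side of a bare stretch in the middle of the cluster, and few peaks lay at its outer ends, in both lists. Mup1, Mup16 and Mup17 lay wholly under peaks in pair 1 and in pair 2. Mup11 was touched in pair 1 only, over 17.2% of its length, and the other 6 genes (Mup3, Mup4, Mup5, Mup7, Mup20 and Mup21) were touched in neither list. The count was 4 of 10 in pair 1, 3 of 10 in pair 2 and 3 of 10 in both. Of all protein-coding genes, 6.28% were touched by at least 1 bp in pair 1, 33.8% in pair 2 and 4.43% in both. Among protein-coding genes of 5000 bp or shorter, the length of 8 of these 10, the shares were 3.64%, 8.2% and 1.79%. At least 50% of the gene was covered in 3 of 10 in each list and in both, against 1.18%, 1.52% and 0.739% of protein-coding genes, and complete coverage in both was found in 0.455%. The median gene, of the 10 as of all protein-coding genes, had 0% of its length under peaks in either list. As the genes were listed with these peaks known, nothing is read from the counts. A summit lay within 3000 bp of an end of the gene for 2 of 10 in pair 1 (Mup7 and Mup11) and 3 of 10 in pair 2 (these and Mup16), against 2.87% and 16.8% of protein-coding genes. Mup1 and Mup17, though wholly covered, had no summit that near in either list.

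**Figure D1:**
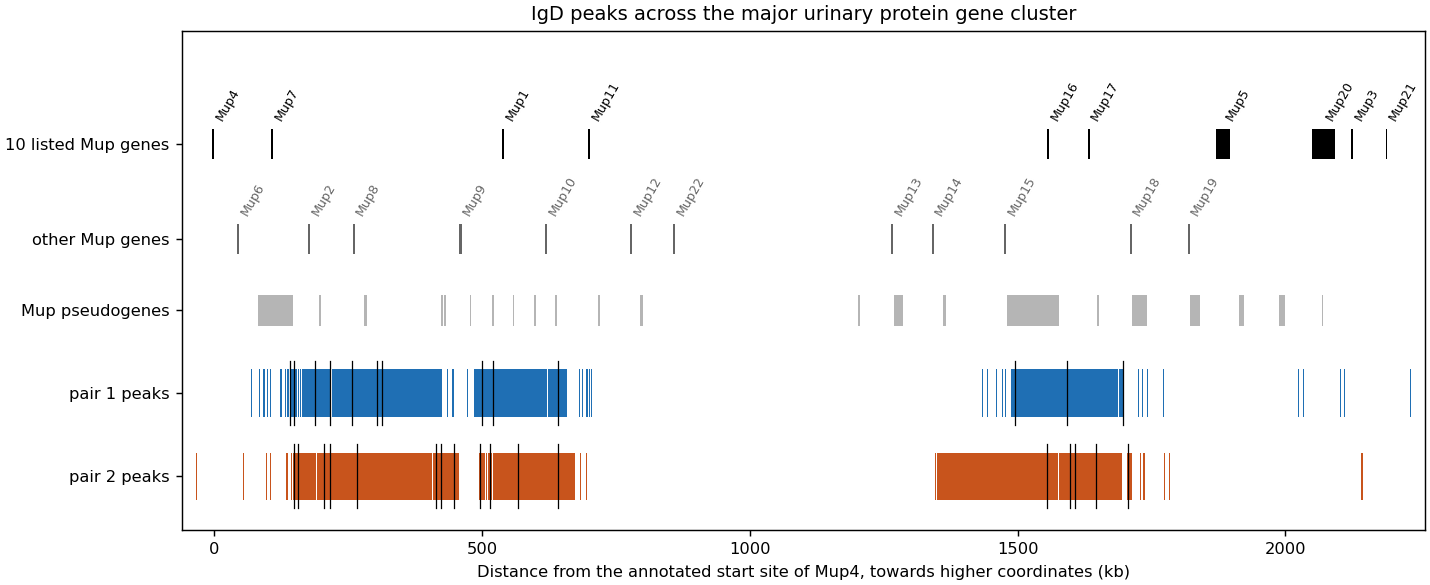
Map of the cluster, with distance from the annotated start site of Mup4 (kb) across and, from top to bottom, the 10 listed genes, the 12 other Mup genes, the Mup pseudogenes and the peaks of each list as filled boxes; thin black lines mark the summits of peaks of 5000 bp or wider. Blocks cover 2 stretches left of a wide space without peaks and 1 stretch right of it in both lists, and the right stretch begins 145 kb lower in pair 2.

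Mup1, also studied as a circulating liver protein that acts on glucose metabolism, lay in a block with similar limits in the lists. The gene spans chr4:60498012-60501960 (mm10, 3949 bp). In pair 1 it lay in a peak of 104666 bp from 60477672 to 60582337, with a fold of 6.58 at the summit and a -log10 q of 12.7. In pair 2 it lay in a peak of 103266 bp from 60479991 to 60583256, with a fold of 7.03 and a -log10 q of 13.7. The limits therefore differed by 2319 bp at the lower end and 919 bp at the higher end. Fold and q are the authors' own values. The fold is the ratio of IgD fragments to background at the summit, the highest point of the peak, and says nothing of the rest of a block.

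The number of fragments behind these folds was small. Solved from fold and p, on the assumption that the caller added 1 to both terms and did not scale the IgD fragments, each Mup1 summit held 25 fragments. The 95% interval, from the exact Poisson distribution, was 16.2 to 36.9 and covers only counting error. The background was 2.954 fragments in pair 1 and 2.699 in pair 2. The summits lay at different places in the block, at 60481563 in pair 1 and 60527244 in pair 2, and neither was in a Mup gene. These counts therefore give no measure of strength at Mup1 itself.

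Mup16 (chr4:61515592-61519627) and Mup17 (chr4:61591929-61595865), neighbours at the higher end of the dense part of the cluster, shared a single peak in pair 1. That peak ran over 179903 bp from 61468718 to 61648620. Its fold of 8.52 was the highest in the window of either list and in the top 0.105% of pair 1, from 31 fragments (21.1 to 44.0) over a background of 2.756. In pair 2 the same genes lay in separate peaks. Mup16 was in a peak of 227213 bp from 61309595 to 61536807, fold 6.60, with 25 fragments (16.2 to 36.9). Mup17 was in a peak of 80619 bp from 61575493 to 61656111, fold 6.49, with 23 fragments (14.6 to 34.5). These fragment numbers belong to the summits and not to the genes.

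Between those 2 peaks pair 2 had peaks of 21757 and 14071 bp, so that the stretch was covered in 4 pieces where pair 1 had 1. The pair 2 summit at 61516387 fell inside Mup16. The pair 1 summit at 61553732 lay 34105 bp from Mup16, the nearest Mup gene. A pseudogene locus, Mup-ps12, overlaps Mup16 in the annotation, and the peaks cannot tell the loci apart.

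Mup11 (chr4:60658466-60662432) had narrow, weak peaks in and next to it, and wide blocks further off. The nearest peak of 20000 bp or wider lay 38552 bp away in pair 1 (37098 bp wide, fold 3.38) and 24529 bp away in pair 2 (49581 bp wide, fold 6.22). In pair 1 a peak of 681 bp from 60659436 to 60660116 lay inside the gene, with a fold of 2.66, a -log10 q of 1.42 and 9 fragments (4.12 to 17.1). No peak of the pair 1 window had a lower -log10 q. A pair 1 peak of 563 bp below the gene (fold 2.66) overlapped a pair 2 peak from 60655093 to 60656109 (fold 3.51, 12 fragments, 6.20 to 21.0), which lay 2357 bp from Mup11. Pair 2 had no peak in the gene. Mup11 was thus the only listed gene touched in 1 list and missed in the other. That difference rests on 9 fragments in pair 1, and its cause was not tested.

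Mup7 (chr4:60066469-60070475) was touched in neither list but had a peak at a matching place in both, below its 3′ end. The pair 1 peak, from 60064554 to 60065451, lay 1018 bp from the gene, with a fold of 4.79 and 17 fragments (9.90 to 27.2). The pair 2 peak, from 60064929 to 60065442, lay 1027 bp away, with a fold of 3.51 and 12 fragments (6.20 to 21.0). The summits were 184 bp apart. The fragment intervals cover only counting error within a library and do not compare the lists. Both peaks, and Mup7 itself, fall within the span annotated for the pseudogene Mup-ps1. Higher up, peaks of 6025 bp (pair 1) and 8590 bp (pair 2) had summits 47 bp apart, with folds of 5.86 and 5.14. In the window, 3 pairs of summits lay within 200 bp of each other, all of them within 50000 bp of Mup7.

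The remaining genes stood clear of peaks. Mup4, described from nasal and gland secretions, had 0 peaks within 50000 bp in pair 1 and 1 in pair 2, a narrow peak of fold 2.98 at 29.6 kb. Mup5, described from salivary glands, had 0 in both lists, with its nearest peaks 98.1 and 87.8 kb away. Mup20 encodes darcin, the urinary protein pheromone of males that attracts females. It had 4 peaks within 50000 bp in pair 1, the nearest at 8.64 kb with a fold of 4.53, and 2 in pair 2, the nearest at 47.2 kb with a fold of 3.24. Mup3 had 2 and 2, with nearest folds of 3.20 and 3.24. Mup21, the last gene of the cluster, had 1 and 2, with its nearest peaks at 43.3 and 43.5 kb. No peak within 50000 bp of Mup3, Mup4, Mup20 or Mup21 was wider than 1003 bp.

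**Figure D2:**
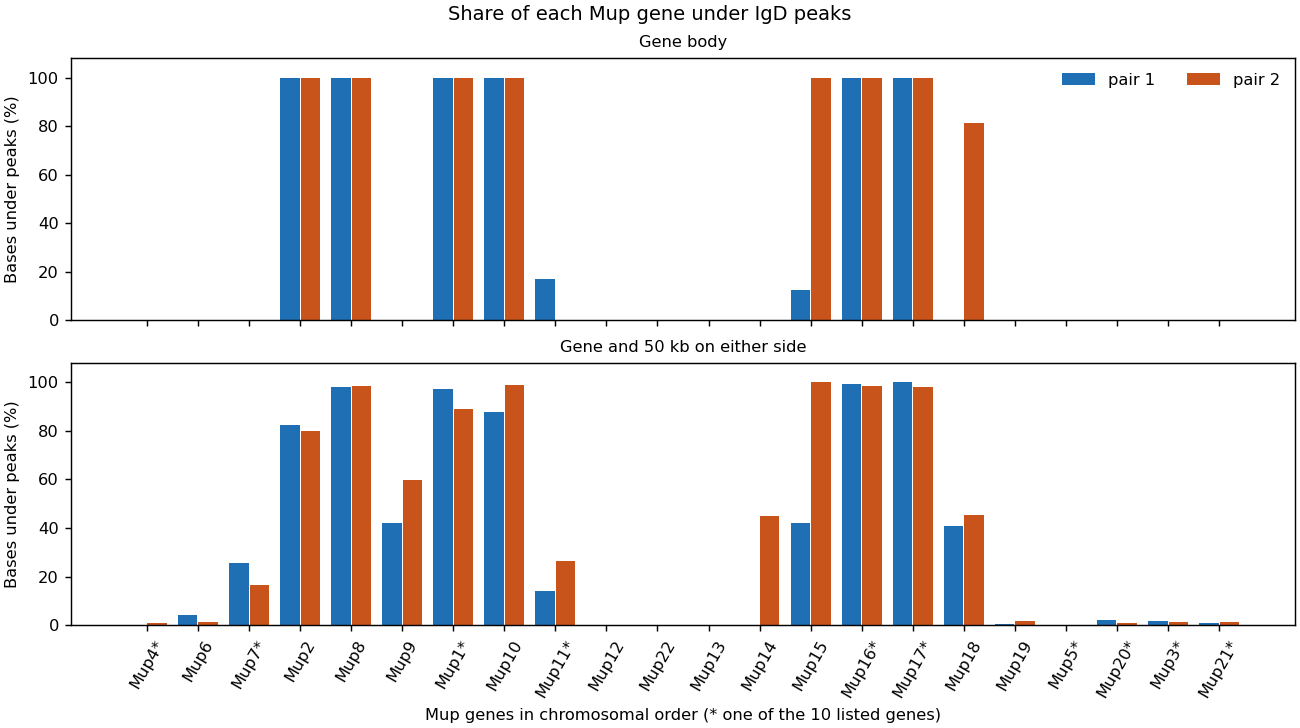
Percent of bases under peaks for the 22 Mup genes in chromosomal order (asterisks mark the 10 listed genes), in the gene body (upper panel) and in the gene with 50 kb on either side (lower panel); blue bars are pair 1 and orange bars pair 2, 1 list each and so without error bars. Mup1, Mup16 and Mup17 reach 100% in both lists, and Mup4, Mup5, Mup20, Mup3 and Mup21 stay at or below 2.16% even with 50 kb added.

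With 50 kb added on either side, the same 5 genes had the highest shares in both lists. In pair 1 the share of bases under peaks was 100% around Mup17, 99.3% around Mup16, 97.2% around Mup1, 25.4% around Mup7 and 14.2% around Mup11. In pair 2 the shares were 98.2%, 98.3%, 88.9%, 16.5% and 26.3%, so Mup7 and Mup11 changed places, as did Mup16 and Mup17 by a narrow margin. The 5 other genes lay between 0% and 2.16% in both lists. Windows of neighbouring genes overlap, as with Mup16 and Mup17, so these shares are not independent.

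In all, the genes and their surroundings held 30 peaks in pair 1 (0.264% of the list) and 23 in pair 2 (0.0566%). The shorter list thus had more peaks here, but at a -log10 q of at least 5 the order turned, with 7 peaks in pair 1 and 10 in pair 2. These were 23.3% and 43.5% of the window peaks, against 16.5% and 38.8% of all peaks of the lists. Pair 2 thus had the larger share at this q over its whole list as well. All peaks of the window together covered 325.6 kb (33.8%) of its 962.3 kb in pair 1 and 316.3 kb (32.9%) in pair 2. Over chromosome 4 the covered share was 2.27% and 3.47%. In the window 292.2 kb were covered in both lists, which is 89.7% of the covered window bases of pair 1 and 92.4% of those of pair 2. By number, 12 of the 30 peaks (40.0%) overlapped a pair 2 peak and 17 of the 23 (73.9%) a pair 1 peak. The like shares over the whole lists were not computed, so whether the window differs from them in overlap was not tested. At the edge of the window, the last peak inside in pair 1 lay 48.6 kb from Mup1 (fold 3.99) and the first outside 50.1 kb from Mup7 (fold 3.99). In pair 2 these lay 45.9 kb (fold 5.68) and 51.9 kb (fold 4.05) from Mup7.

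Width and fold of the window peaks are set beside those of the whole lists here. The genes were listed with these peaks known, so any difference is a description only. Of the 30 pair 1 peaks, 4 were 20000 bp or wider, as were 6 of the 23 in pair 2. Peaks of that width made up 2.58% of pair 1 and 0.783% of pair 2. Median width was 1048 bp in the pair 1 window against 856 bp in the whole list, and 1917 bp against 774 bp in pair 2. The median fold was 3.29 in the pair 1 window against 3.46 in the list, and 4.05 against 3.78 in pair 2. Among peaks under 1000 bp, 5 of 14 in pair 1 and 1 of 7 in pair 2 lay above the median fold of their list for that width.

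The wide blocks had higher folds, as wide peaks did everywhere in these lists. The 4 wide blocks of pair 1 had folds of 3.38, 5.59, 6.58 and 8.52, with 3 above the list median of 5.06 for that width. The 6 of pair 2 ran from 5.68 to 7.03, with 5 above the list median of 6.03. A wide block offers more positions for a high summit, so its fold and that of a narrow peak are not on equal terms.

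**Figure D3:**
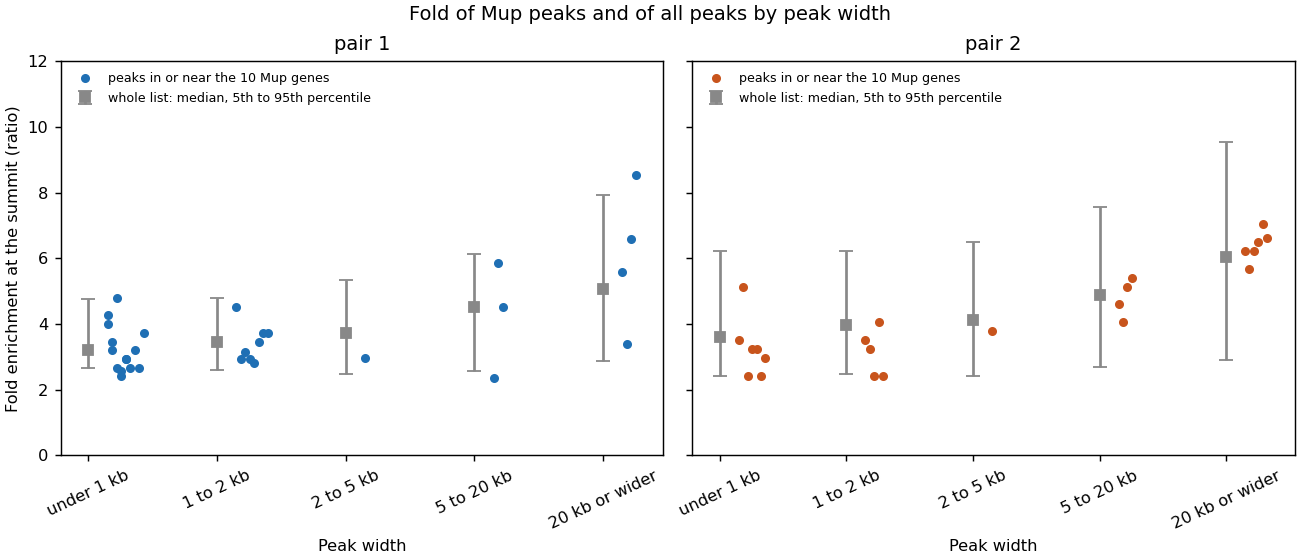
Fold enrichment at the summit by class of peak width for pair 1 (left) and pair 2 (right); grey squares and bars give the median and the 5th to 95th percentile of the whole list, and coloured points are the 30 and 23 peaks in or near the 10 Mup genes. Folds rise with width in both lists, and the Mup blocks of 20 kb or wider sit between 3.38 and 8.52.

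The background at most of these summits was the lowest value found in its list. It solved to 2.756 fragments at 22 of the 30 summits in pair 1 (73.3%) and to 2.699 at 20 of the 23 in pair 2 (87.0%). The same floor applied to 77.0% of all pair 1 peaks and 70.1% of all pair 2 peaks. MACS2 is known to take the larger of a genome-wide and a local background, so a value at the floor gives only an upper limit for the local IgG signal. The highest background in the window was 6.25 fragments in pair 1 and 3.70 in pair 2. These lists cannot show how IgG behaved where no peak was called.

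Seen over the whole cluster, from 50 kb below Mup4 to 50 kb above Mup21, the blocks joined into 3 long stretches in each list once gaps of up to 2000 bp were bridged. The first ran from 60095980 to 60385005 in pair 1 (289 kb) and from 60107272 to 60416878 in pair 2 (310 kb), and held Mup2 and Mup8. The second, with Mup1 and Mup10, ran from 60445456 to 60619914 (174 kb) and from 60454865 to 60633937 (179 kb). The third, with Mup16 and Mup17, ran from 61451081 to 61658167 (207 kb) and from 61305709 to 61656111 (350 kb), where pair 2 also took in Mup15. The third stretch thus began 145 kb lower in pair 2, the largest mismatch of limits among the 3. The gap of 2000 bp was chosen after the peaks were seen.

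The 12 other Mup genes split in the same way. Mup2, Mup8 and Mup10 lay wholly under peaks in both lists. Mup15 was covered over 12.5% in pair 1 and 100% in pair 2, and Mup18 over 0% and 81.4%. The other 7 (Mup6, Mup9, Mup12, Mup13, Mup14, Mup19 and Mup22) were touched in neither list. Of the 22 loci named as Mup pseudogenes, 11 were touched in pair 1, 12 in pair 2 and 10 in both. Of all protein-coding genes 6.28%, 33.8% and 4.43% were touched, and no share over all pseudogenes was taken. The named loci run from 99 to 97893 bp, and Mup-ps1 and Mup-ps12 span Mup7 and Mup16. Their counts are thus not separate from those of the genes, and nothing is read from them. The highest fold of the cluster in pair 2, 10.0, was in the Mup8 block from 60180354 to 60367326, outside the window of the 10 genes.

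Covered and bare genes overlapped in promoter likeness. Among the 14 Mup genes with a promoter sequence, Mup2 (98.0% identical to Mup17) and Mup10 (94.3%) were wholly covered in both lists. Mup9 (98.4%) and Mup19 (97.2%), as close to Mup17, were touched in neither. Their surroundings differed: the nearest peaks lay 9.77 kb (pair 1) and 1.17 kb (pair 2) from Mup9, and 45.1 and 34.8 kb from Mup19. The 4 genes with the lowest identity (Mup6 at 80.4%, then Mup4, Mup3 and Mup21) were bare in both lists. Their values include 34, 32, 35 and 38 gap columns counted as differences. Mup1, Mup8 and Mup16, also wholly covered in both lists, had no promoter sequence here. Mup17 is the reference, so the wholly covered side of this comparison rests on Mup2 and Mup10. Genes of the cluster share sequence and neighbours, and no test was made.

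**Figure D4:**
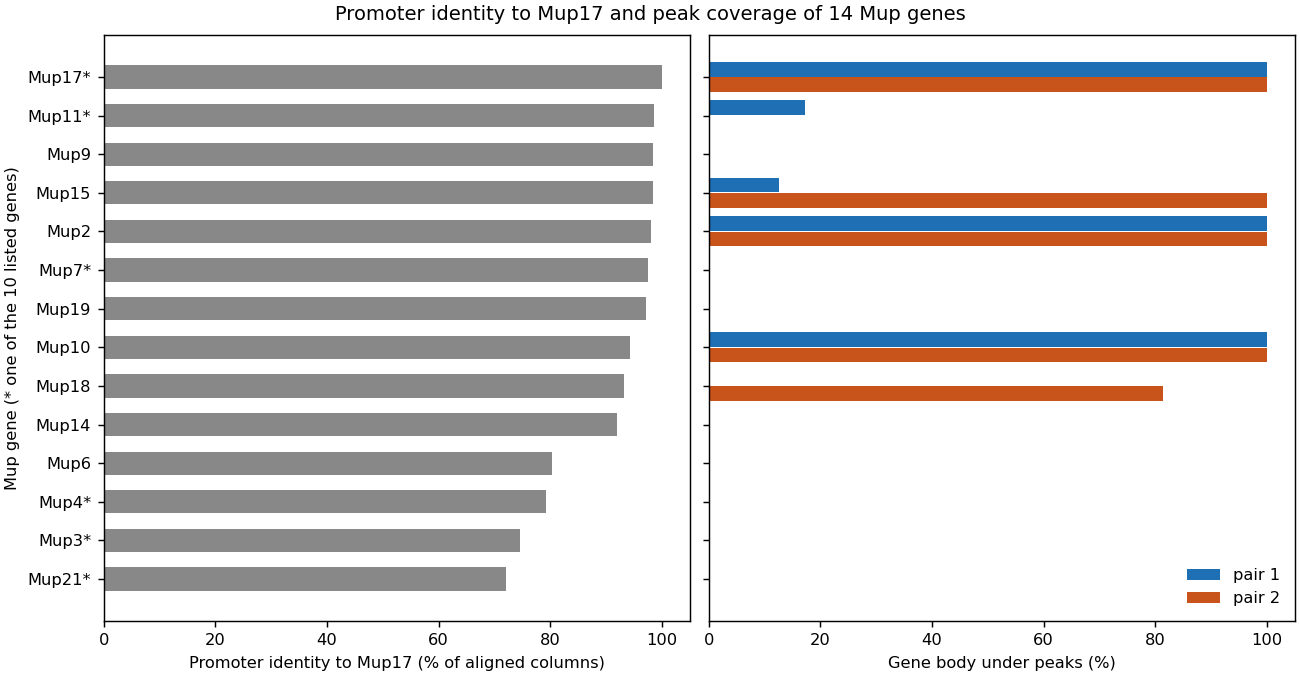
For 14 Mup genes ordered by the identity of their promoter to that of Mup17, the identity over aligned columns (left, percent) and the share of the gene body under peaks (right, percent; blue pair 1, orange pair 2, 1 list each). Mup9, Mup7 and Mup19 are within 3 percentage points of Mup17 yet have no bar on the right, and the 4 genes with the lowest identity have none either. Gap columns count as differences, and the Mup7 value rests on 121 columns only.

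Lipocalin genes elsewhere and genes tied to Mup expression were counted in the same way. Of 24 matched lipocalin genes outside the cluster, 1 was touched in pair 1 (4.17%) and 5 in pair 2 (20.8%), against 6.28% and 33.8% of all protein-coding genes. Rbp4, the plasma carrier of retinol, was touched in both, with folds of 3.20 and 4.80 at places that did not overlap. Of 16 regulators of Mup transcription in liver, 2 were touched in pair 1 (12.5%) and 10 in pair 2 (62.5%). Hnf4a, a liver transcription factor, was touched in both, with highest folds of 5.33 and 4.87. It spans 66097 bp and so offers more room for a peak than most Mup genes. Among 16 hepatocyte markers the counts were 0 and 3, and among 16 pro-B markers 0 and 5. In none of these 4 lists was a gene wholly covered in both lists, as 6 of the 22 Mup genes were.

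Among the clustered gene families looked at, the share of genes touched in both lists was 31.8% for the 22 Mup genes, 14.9% for 47 Pramel genes, 4.80% for 229 Vmn1r genes, 3.25% for 123 Vmn2r genes and 1.71% for 1109 Olfr genes. Over all protein-coding genes it was 4.43%. Complete coverage in both lists was also found in 10 of 229 Vmn1r, 8 of 1109 Olfr and 2 of 47 Pramel genes, so wholly covered genes were not confined to the Mup cluster. Over all protein-coding genes that share was 0.455%. The Vmn1r and Vmn2r genes encode vomeronasal receptors, among them receptors for urinary cues, and the Olfr genes encode odorant receptors. The Mup genes were picked out with these peaks known and genes of a cluster share blocks, so the order of these shares was not tested. The genes on either side of the cluster were Slc46a2, a transporter gene with 0 peaks in both lists, and Zfp37, a zinc finger gene with 1 peak in each (folds 3.46 and 4.60) that did not overlap.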

How the data were processed

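ChIP-seq of sorted pro-B cells gave 2 IgD and 2 IgG libraries, grouped by the labels; numbers follow the titles. For processing, the submitters' processing notes list mm10, HISAT2, MACS2 and ChIPseeker, with no version or setting. The labels tie each list to the IgD and IgG library of the same number. The fold (a ratio) and the -log10 p and q at each summit were deposited by the authors as their caller gave them. Library totals were not used here.

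Genes came from a RefSeq table on GRCm38.p6 after 348 rows placed on scaffolds were left out. A gene was touched when a peak overlapped it by at least 1 bp. Fragments were solved from fold and a Poisson p, with an error in -log10 p of at most 0.00078 over all peaks. Coverage and this solution were tested on simulated data. Promoters, matched for 14 of 22 Mup genes, were aligned end to end with free end gaps (match 1, mismatch -1, gap -3 and -0.5). The table's 50 bases after each start were left out. Of 27 lipocalin symbols 24 matched, and of 17 regulator symbols 16 genes, as Hnf6 and Onecut1 are the same gene. Families were taken by symbol prefix and are given as counts.

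The members and lists were chosen with earlier results of these data known. Named genes were the 10 Mup genes, the other Mup genes of the cluster, the nearest protein-coding gene on either side and the list members touched in both lists, of which 1 is not reported here. No test was made, since there is 1 list per pair. Alternatives were stricter q and fold, other windows, overlaps and widths, equal list lengths and each pair alone. Python 3.11.15, numpy 2.4.6, pandas 2.3.3, scipy 1.17.1, biopython 1.88 and matplotlib 3.10.9 were used.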

Additional observations from a re-analysis of the deposited data

How the results depend on the processing

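No paired analysis was possible because each pair gave a single peak list and no result came from a test. The count of Mup genes touched in both lists was 3 with 50% of the gene covered, with a -log10 q or fold of at least 5, and with pair 2 shortened to the length of pair 1. Without peaks of 20000 bp or wider it fell to 0, with 1 gene in pair 1 and 0 in pair 2, and the highest pair 1 fold was 5.86. Taken alone, the pairs gave 3 to 4 touched genes. The covered share of gene sequence was 12.6% in pair 1 and 11.9% in pair 2. At the stricter q pair 1 gave 11.9%, without wide peaks the shares were 0.68% and 0%, and with 5000 bp on either side 22.5% and 21.7%. The 30 and 23 peaks of the window became 8 and 6 within 10000 bp, 54 and 42 within 200000 bp, 7 and 10 at the stricter q, and 53 and 37 over the whole cluster (added after the data were seen). Pair 2 had 9 at equal list length. Of the 12 pair 1 peaks shared with pair 2, 5 were left at 50% reciprocal overlap, 3 with summits within 200 bp, 5 at the stricter q and 4 within 10000 bp, and 28 were shared within 200000 bp and over the whole cluster. For the 17 of pair 2 these were 6, 3, 8 and 5. Genes with a summit within 3000 bp of an end numbered 2 in pair 1 and 3 in pair 2, against 0 and 1 within 1000 bp and 1 and 1 at the stricter q. Folds rest on 8 to 31 fragments per summit, and the cause of each shift beyond its own construction was not tested.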

Other observations

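The widest space without a peak of either list inside the cluster ran from 60664763 to 61305708 on chromosome 4 (641 kb) and held 4 Mup genes, Mup12, Mup22, Mup13 and Mup14. A second, from 61743558 to 61983408 (240 kb), held Mup19 and Mup5. The third in length, from 62104348 to 62194135 (89.8 kb), held Mup21. No genome sequence was used here, so how much of these spaces is assembly gap or sequence to which reads cannot be assigned was not tested.

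Within the long stretches the peaks were parted by short gaps. In pair 1 the 3 stretches held 11, 5 and 2 gaps, of 479 to 1957 bp, and in pair 2 they held 7, 6 and 4, of 498 to 1786 bp. Gaps that overlapped a gap of the other list numbered 1, 1 and 0 in pair 1 and 1, 1 and 0 in pair 2. The limits of the stretches differ, so some gaps lie outside the stretch of the other list. How many gaps this short would overlap by position alone was not computed, so nothing is read from these counts. The closest summits of the cluster lay 5 bp apart, at 60177135 in pair 1 (fold 6.39) and 60177140 in pair 2 (fold 5.42), 37158 bp from Mup2.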
